A study of Mus musculus with 15 samples.

Results

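Expression of the RUNX and C/EBP transcription factors, of the RUNX partner Cbfb and of the nuclear receptor corepressor Nrip1 was examined in mouse cumulus cells. These are the granulosa cells that surround the oocyte. The genes considered were Runx1, Runx2, Runx3, Cbfb, Cebpa, Cebpb, Cebpd, Cebpg and Nrip1. Members were the probes that carry one of these 9 symbols in the authors' table of probes present in at least 1 stage, which gave 11 probes for 8 of the 9 genes, among 15059 different gene symbols in that table. The missing gene was Runx3, whose 2 probes on the array are described from the scanner output.

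All cells came from B6CBAF1/J mice, and 5 arrays were hybridized for each of 3 stages, every array with the RNA of a pool of several females. NC1 cells came from 3-week-old juveniles and C1 cells from 8-week-old adults. In both cases unexpanded complexes around prophase I oocytes were punctured out of large follicles, and the cells were then separated from the oocytes. Neither group is described as hormone-treated. NC1 oocytes were described as unable, or poorly able, to develop and C1 oocytes as competent. C2 cells came from 8-week-old adults superovulated with pregnant mare serum gonadotropin and human chorionic gonadotropin, as expanded complexes around metaphase II oocytes that were collected in the oviduct and dispersed with hyaluronidase. The NC1 to C1 comparison therefore holds age and oocyte competence together, and the C1 to C2 comparison holds hormone treatment, time after the ovulatory stimulus, site of collection and enzyme together, and these cannot be told apart.

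RUNX proteins bind DNA through their Runt domain, and Cbfb is the partner that does not contact DNA itself but stabilises that binding. C/EBP proteins are leucine zipper factors that bind as dimers with each other. In the follicle, luteinizing hormone acts through cAMP and EGF-like factors, and Runx1, Runx2, Cebpa and Cebpb are known as factors of the granulosa response to that signal, while mice without Nrip1 fail to release the oocyte at ovulation.

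Promoter windows of 300 bases from RefSeq (assembly GRCm38.p6) were given for 8 of the 9 genes, in 11 windows. Each ran from 250 bases before to 50 after an annotated start. Shown are 4 of the windows that carry the motifs of the factors themselves or of cAMP signalling. In the first 3 sequences capitals mark matches to the RUNX core TGNGGT on either strand, in windows at chr16:92826025-92826324 (minus strand) for Runx1, chr17:44814578-44814877 (minus strand) for Runx2 and chr4:135120395-135120694 (plus strand) for Runx3.
Runx1: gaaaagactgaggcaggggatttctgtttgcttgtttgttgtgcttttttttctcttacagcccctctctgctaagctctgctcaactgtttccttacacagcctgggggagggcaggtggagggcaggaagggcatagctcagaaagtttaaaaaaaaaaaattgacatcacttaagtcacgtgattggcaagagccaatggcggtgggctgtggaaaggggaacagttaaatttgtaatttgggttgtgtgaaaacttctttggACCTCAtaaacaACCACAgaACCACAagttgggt
Runx2: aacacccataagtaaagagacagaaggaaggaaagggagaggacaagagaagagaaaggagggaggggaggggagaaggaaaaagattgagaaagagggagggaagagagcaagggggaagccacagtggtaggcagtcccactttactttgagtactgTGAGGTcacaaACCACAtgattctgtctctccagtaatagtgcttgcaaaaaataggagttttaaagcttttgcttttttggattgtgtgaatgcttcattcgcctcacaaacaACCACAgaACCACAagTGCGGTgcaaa
Runx3: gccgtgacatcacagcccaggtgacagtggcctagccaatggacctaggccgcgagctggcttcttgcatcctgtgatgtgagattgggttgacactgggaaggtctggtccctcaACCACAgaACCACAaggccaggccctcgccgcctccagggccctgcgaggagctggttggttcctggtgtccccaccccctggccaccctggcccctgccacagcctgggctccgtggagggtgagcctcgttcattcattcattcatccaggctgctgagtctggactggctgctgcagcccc
Each of these windows held a pair of ACCACA cores on the gene's strand with 2 bases between them. In Runx1 the first core of the pair began 29 bases and in Runx2 24 bases after the annotated start, whereas in Runx3 it began at -134. The letters ACCACANNACCACA, chosen after the windows had been read, were found on either strand in 7 of all 32851 windows (0.0213%), and 3 of the 7 were these RUNX genes.

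The single RUNX core was common, since 15039 of 32851 windows (45.8%) and 4 of the 11 member windows held it. Besides the windows shown, an Nrip1 window held it at -237, while the other windows of Runx1 and Runx3 did not hold it. The C/EBP letters TTNNGNAA, searched on both strands, were in 40.7% of all windows and in 2 of the 11 member windows. One of these was the Runx2 window, where TTGAGAAA began at -164 and TTGCAAAA at -48. The other was a further Nrip1 window, with a match at -136. The core TGACG of the cAMP response element, also searched on both strands, was in 20.8% of all windows and in 1 member window, that of Cebpb at chr2:167688665-167688964 (plus strand), where capitals mark its 3 matches.
Cebpb: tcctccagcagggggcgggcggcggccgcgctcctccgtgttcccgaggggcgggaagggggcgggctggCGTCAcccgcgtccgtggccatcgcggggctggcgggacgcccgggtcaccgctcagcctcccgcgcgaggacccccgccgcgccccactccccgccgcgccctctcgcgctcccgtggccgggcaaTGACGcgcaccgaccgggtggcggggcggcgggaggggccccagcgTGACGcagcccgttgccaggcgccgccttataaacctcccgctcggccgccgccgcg
These matches began at -180, -53 and -7 from the annotated start. They are matches of letters and no binding was measured.

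Values are log2 intensities, background-subtracted by the scanner software, minus each array's median over 17323 valid probes, so a value of 0 is the median probe of that array. Valid probes were those called well above background by the scanner software on at least 4 of 5 arrays of every stage. Changes were tested with limma in 1 model over the 15 arrays and called at a Benjamini-Hochberg adjusted p under 0.01. Of the 11 member probes, 10 were valid, for 8 genes. The 11th, a second Runx2 probe, was present at C2 but below the rule at NC1 and C1.

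Across the arrays, 18366 to 24493 gene probes were well above background, the highest number on C1 replicate 4, and arrays of the same stage correlated at 0.976 to 0.996 over the valid probes. All 8 granulosa and cumulus markers (Amh, Amhr2, Fshr, Foxl2, Inha, Inhbb, Nr5a1 and Cyp19a1) were above background at each stage. Among ovulatory genes C1 replicate 4 stood apart from the other C1 arrays. Tnfaip6, which links hyaluronan in the expanding matrix, read 2.70 there and between -3.77 and -2.90 on the other C1 arrays, and the prostaglandin synthase Ptgs2 read -1.88 against -6.73 to -5.57, where it was not above background. C1 results for the members are therefore given with and without this array.

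The first question was how the members changed at ovulation. Between C1 and C2, 6 of 10 valid member probes were called and all 6 were higher at C2, against 47.6% of all valid probes called and 25.4% called higher. The median change of the member probes was 0.81, against 0.02 for all valid probes. Among the called probes the order of the rises was Runx1 first, followed by Cebpb, Cebpa, Runx2 and Cebpg. The values of C1 and C2 did not overlap for 6 of the 10 member probes, against 43.9% of all valid probes. The 6 calls also held without C1 replicate 4.

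**Figure D1:**
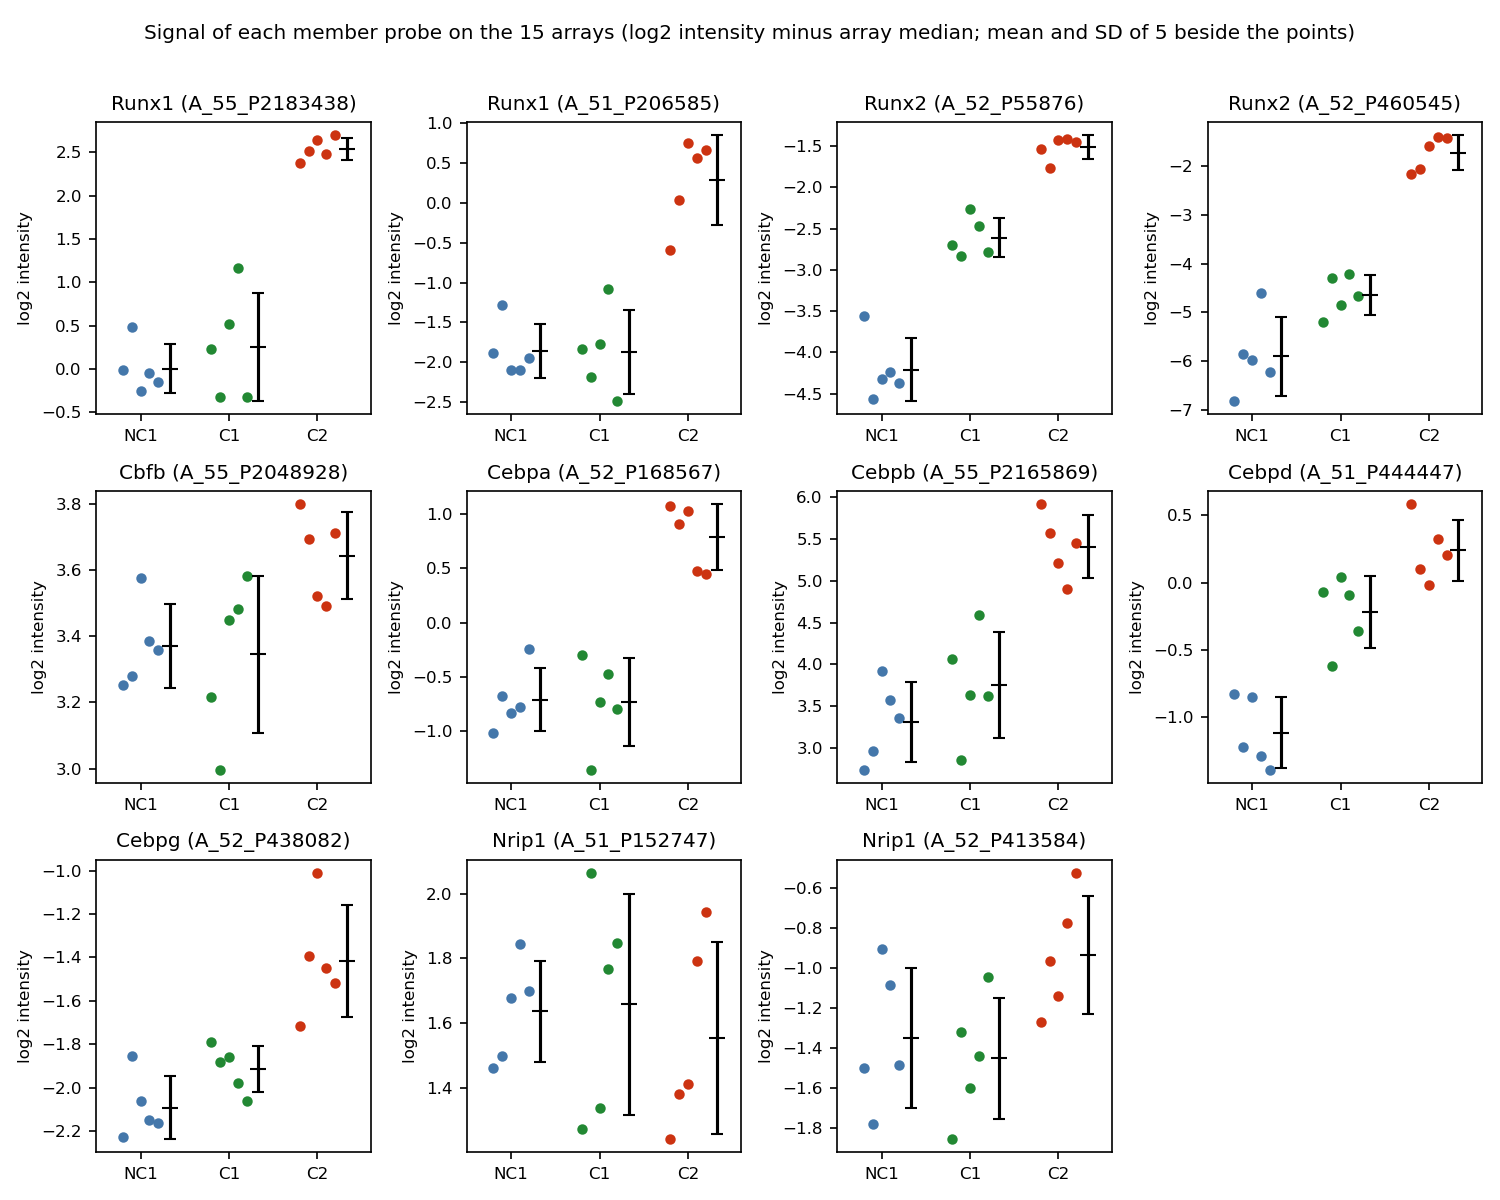
Each panel plots 1 member probe, with the log2 intensity minus the array's median on the vertical axis, the 5 arrays of each stage as points and the mean ± SD of the 5 arrays beside them. Runx1, Cebpa and Cebpb overlap between NC1 and C1 and are highest at C2. The first Runx2 probe and Cebpd have already moved at C1, and the first Nrip1 probe overlaps in all stages.

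Runx1, the RUNX protein best known from blood formation, was measured by 2 probes for different transcript accessions. Probe A_55_P2183438 read -0.014, 0.48, -0.26, -0.045 and -0.16 on the NC1 arrays. At C1 it read 0.22, -0.32, 0.52, 1.16 and -0.33, and at C2 it read 2.38, 2.51, 2.64, 2.47 and 2.70. The C2 arrays lay close together and above all others, whereas NC1 and C1 overlapped and the highest C1 value was replicate 4. From C1 to C2 the change was 2.29 (SE 0.23, 95% interval 1.80 to 2.78), a 4.89-fold rise, with an adjusted p of 3.1e-07 by limma. It exceeded the change of 98.5% of all valid probes.

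The second Runx1 probe, A_51_P206585, averaged -1.86 ± 0.34 (SD, n = 5) at NC1 and -1.87 ± 0.53 at C1. Its C2 values were -0.59, 0.044, 0.76, 0.57 and 0.66, more spread than those of the first probe, and replicate 1 was the lowest of them on both probes. The rise from C1 to C2 was 2.16 (SE 0.28, limma adjusted p = 4.2e-06), close to that of the first probe. With stage means removed, the 2 probes followed each other over the 15 arrays (r = 0.80).

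Between NC1 and C1, Runx1 did not pass the test on either probe, with changes of 0.25 (95% interval -0.24 to 0.74) and -0.01 (-0.60 to 0.57). Without C1 replicate 4 these were 0.02 and -0.21, and the rises to C2 became 2.52 and 2.36.

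Runx2, the RUNX protein required for bone formation, had a different course. Probe A_52_P55876 read -3.56, -4.56, -4.33, -4.23 and -4.37 at NC1. It read -2.70, -2.83, -2.26, -2.47 and -2.78 at C1, and -1.54, -1.76, -1.42, -1.41 and -1.45 at C2. No stage overlapped with another, and the levels were ordered NC1, C1, C2. The first step was 1.60 (SE 0.16, limma adjusted p = 1.2e-05), a 3.03-fold rise, and the second 1.09 (SE 0.16, limma adjusted p = 2.6e-05), a 2.13-fold rise. Without C1 replicate 4 these were 1.56 and 1.13.

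The second Runx2 probe, A_52_P460545, was well above background on no NC1 array, on 2 C1 arrays and on all 5 C2 arrays. Its values were -6.83, -5.87, -5.97, -4.61 and -6.24 at NC1. They were -5.21, -4.29, -4.85, -4.21 and -4.66 at C1 and -2.16, -2.06, -1.58, -1.39 and -1.43 at C2. NC1 and C1 overlapped on this dim probe and C2 lay above both. Because NC1 has only a bound, C2 was at least 8.02-fold higher than NC1, where the bound sets the mean of the C2 arrays against the lowest signal well above background on each NC1 array, or the probe's own signal where that was higher. The probe entered the authors' table through C2 alone, so no test of it is given.

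Runx3 was at or near background. Its probe A_55_P2130895 was well above background on 1 NC1, 2 C1 and 1 C2 array, and its values ran from -6.64 to -3.90 over the 15 arrays. The probe A_51_P494992 was well above background on 1 C1 array only, with values from -7.12 to -5.44. For both probes 1 of the C1 arrays concerned was replicate 4, the array with the most probes above background.

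Cbfb, the common partner of the RUNX proteins, was bright and nearly level. It read 3.25, 3.28, 3.58, 3.39 and 3.36 at NC1, 3.22, 3.00, 3.45, 3.48 and 3.58 at C1, and 3.80, 3.69, 3.52, 3.49 and 3.71 at C2. The stages overlapped. The change from C1 to C2 was 0.30 (95% interval 0.05 to 0.55), with an adjusted p of 0.039 by limma, and from NC1 to C1 it was -0.03 (-0.28 to 0.22), so neither was called. Without C1 replicate 4 these were 0.33 and -0.06.

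The signals of 2 members were also compared within each array, by the difference of their log2 values, with exact two-sided permutation tests over the 5 arrays of each stage. There were 6 such tests, and the smallest p they can give is 0.0079. None had an adjusted p under 0.01, the threshold of the limma calls. That threshold was nearly out of reach, since even the tests at the smallest p were adjusted to 0.024. The Runx1 minus Runx2 difference fell by 1.35 from NC1 to C1 (exact permutation p = 0.016, adjusted 0.032). It then rose by 1.19 from C1 to C2 (exact permutation p = 0.0079, adjusted 0.024). The Runx1 minus Cbfb difference moved by 0.28 at the first step (exact permutation p = 0.42, adjusted 0.50) and rose by 1.99 at the second (exact permutation p = 0.0079, adjusted 0.024). For the first step of Runx1 minus Runx2, the adjusted exact permutation p was 0.063 when any 1 of 7 arrays was left out. With the normexp background correction this step was -0.72 (exact permutation p adjusted to 0.095). Without C1 replicate 4 the steps of Runx1 minus Runx2 were -1.54 and 1.39, and those of Runx1 minus Cbfb 0.084 and 2.18.

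Cebpb, which is needed in granulosa cells for luteinization, read 2.74, 2.96, 3.93, 3.58 and 3.36 at NC1. It read 4.07, 2.86, 3.63, 4.59 and 3.63 at C1 and 5.92, 5.57, 5.21, 4.90 and 5.46 at C2. All C2 arrays were above all others, while NC1 and C1 overlapped and C1 replicate 4 was again the highest C1 array. The rise from C1 to C2 was 1.66 (SE 0.29, 95% interval 1.05 to 2.26), or 3.15-fold, with an adjusted p of 0.00011 by limma. Without C1 replicate 4 it was 1.86, and the change from NC1 to C1 moved from 0.45 (95% interval -0.16 to 1.05) to 0.24, not called in either case.

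Cebpa, the member known from liver, fat and myeloid differentiation, averaged -0.71 ± 0.29 (SD, n = 5) at NC1 and -0.74 ± 0.40 at C1, which overlapped. At C2 it read 1.08, 0.91, 1.03, 0.48 and 0.45, all above the highest earlier value of -0.25. The rise from C1 to C2 was 1.52 (SE 0.20, limma adjusted p = 4.8e-06), or 2.88-fold, and without C1 replicate 4 it was 1.59. The Cebpb minus Cebpa difference within arrays moved by 0.47 at the first step (exact permutation p = 0.095, adjusted 0.14) and by 0.13 at the second (exact permutation p = 0.52, adjusted 0.52), which became 0.33 and 0.27 without C1 replicate 4. A difference in the change of these genes was thus not detected with 5 arrays a stage.

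Cebpd, a member often induced by inflammatory signals, was called at the first step. It read -0.83, -1.22, -0.85, -1.29 and -1.40 at NC1, and -0.069, -0.62, 0.04, -0.10 and -0.36 at C1. Every C1 array was above every NC1 array, with a change of 0.90 (SE 0.16, limma adjusted p = 0.0018), or 1.86-fold. At C2 it read 0.58, 0.10, -0.016, 0.32 and 0.21, overlapping with C1. That step was 0.46 (95% interval 0.13 to 0.79) with an adjusted p of 0.017 by limma, and it was not called. Both calls were the same without C1 replicate 4, at 0.87 and 0.49. Its calls depended on the scaling. Centred on the median of all gene probes, the first step was 0.79 (limma adjusted p = 0.041) and the second 0.77 (limma adjusted p = 0.0035).

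Cebpg, a short member that pairs with other leucine zipper factors and has no activation domain of its own, moved least among the called members. Its values ran from -2.23 to -1.85 at NC1, from -2.06 to -1.79 at C1 and from -1.72 to -1.01 at C2. The C2 values lay just above the C1 values. The change from C1 to C2 was 0.50 (SE 0.12, limma adjusted p = 0.0022), 1.41-fold, which is larger than that of only 75.2% of valid probes, and 0.48 without C1 replicate 4. It was 0.34 with spike-in scaling (limma adjusted p = 0.38) and 0.37 with the normexp correction (limma adjusted p = 0.012), and was then not called.

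Nrip1, a corepressor of nuclear receptors, was not called at any step. Probe A_51_P152747 read 1.46, 1.50, 1.68, 1.84 and 1.70 at NC1, 1.27, 2.06, 1.34, 1.77 and 1.85 at C1, and 1.24, 1.38, 1.41, 1.79 and 1.94 at C2. The 3 stages overlapped, and its change from C1 to C2 was -0.10 (95% interval -0.46 to 0.25, limma adjusted p = 0.62). The second probe, A_52_P413584, which only the authors' table names Nrip1, changed by 0.52 (0.12 to 0.91, limma adjusted p = 0.026) at that step. With the scaling of the authors' deposited table this second probe reached 0.83 (limma adjusted p = 0.0089) and was called. The changes of the 2 probes at that step were -0.08 and 0.52 without C1 replicate 4. With stage means removed the 2 probes correlated at 0.78 over the 15 arrays.

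**Figure D2:**
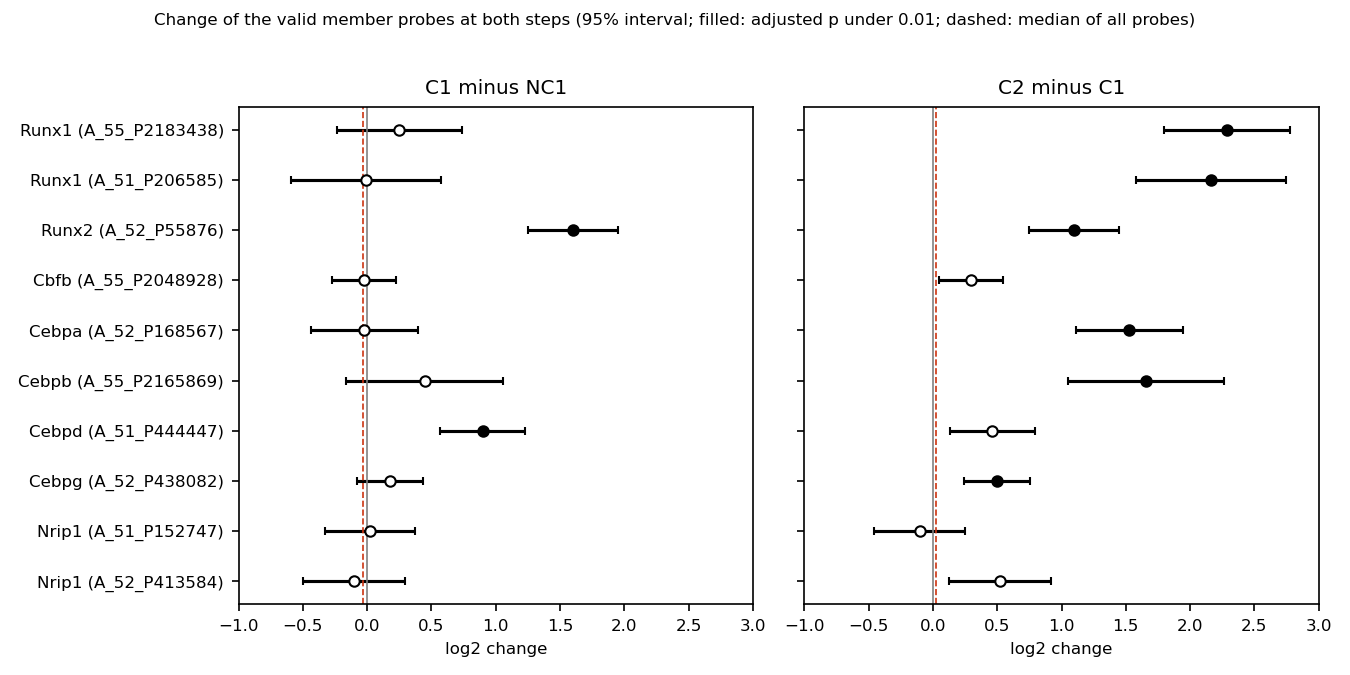
Log2 change of the 10 valid member probes from NC1 to C1 (left) and from C1 to C2 (right), with 95% intervals. Filled points had a limma adjusted p under 0.01 and the dashed line is the median of all valid probes. Only Runx2 and Cebpd are filled on the left, and Runx1, Runx2, Cebpa, Cebpb and Cebpg on the right.

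The second question was which members differed already between juvenile and adult prophase I cells. Of 10 valid member probes 2 were called, both higher at C1, against 2.52% of all valid probes called and 1.75% called higher. They were Runx2 and Cebpd, and theirs were also the member probes whose NC1 and C1 values did not overlap, against 5.98% of all valid probes. The median change of the members was 0.10, against -0.03 for all valid probes. The Runx2 change was larger than that of 99.3% of valid probes and the Cebpd change larger than that of 97.8%. The Runx2 call held under each alternative processing that was run, whereas Cebpd was not called in 4 of them, nor where a change of at least 2-fold was required. The size of the Runx2 change depended on the processing, from 0.91 to 1.76 under the alternatives. With single arrays left out it ran from 1.51 to 1.76.

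**Figure D3:**
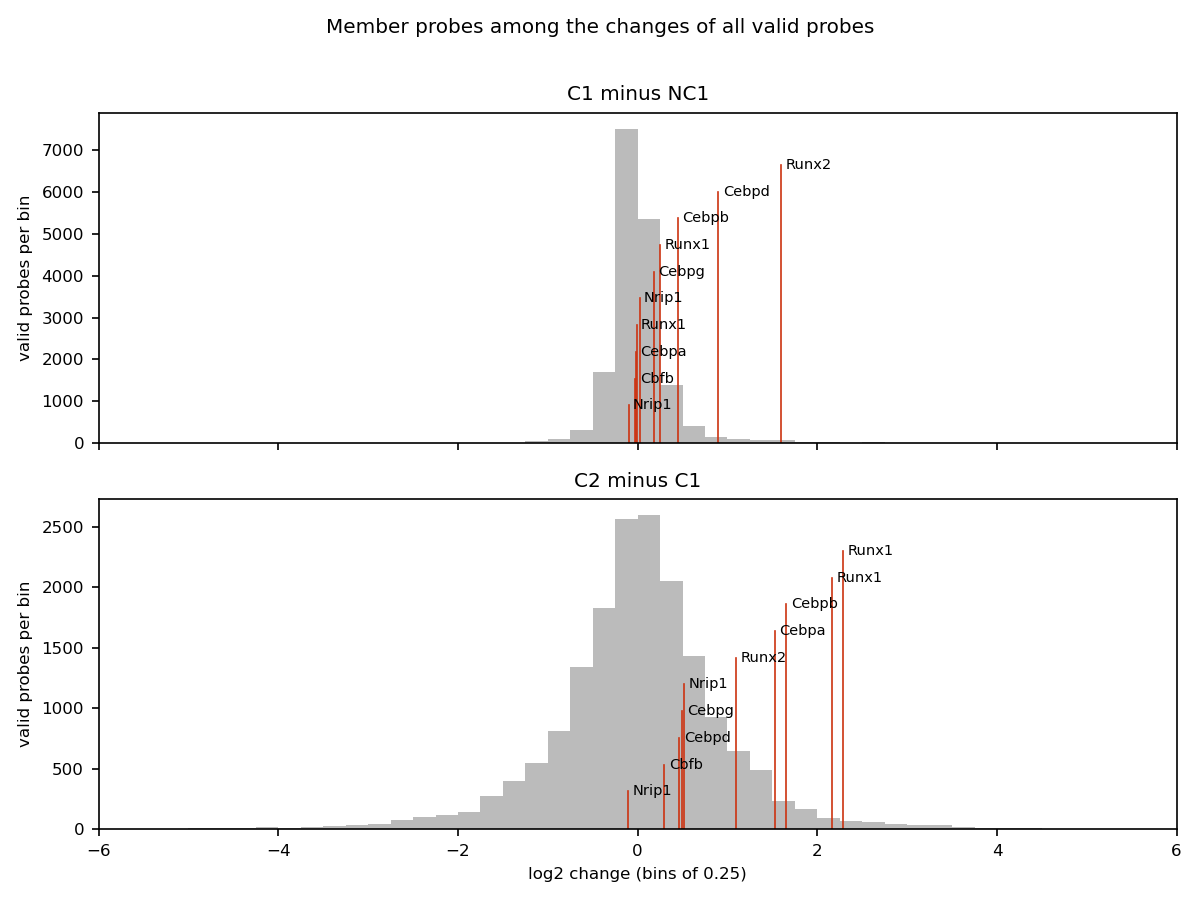
Number of valid probes per bin of 0.25 in log2 change (grey bars) for NC1 to C1 (upper) and C1 to C2 (lower), with red lines at the member probes. Runx2 and Cebpd lie in the right tail of the upper panel, and both Runx1 probes, at 2.29 and 2.16, lie in the right tail of the lower.

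Over the whole span from NC1 to C2, 7 of the 10 probes were called and all 7 were higher at C2, against 51.5% of all valid probes called and 26.5% called higher. The test of any difference among the 3 stages called the same number, 7, against 51.6% of all valid probes. The span was 2.69 for Runx2 (6.47-fold), 2.54 and 2.15 for the Runx1 probes, 2.10 for Cebpb, 1.50 for Cebpa, 1.36 for Cebpd and 0.67 for Cebpg. Cbfb and both Nrip1 probes were not called. Under the alternatives the Runx2 span ranged from 1.73 to 2.90.

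Whether the second step exceeded the first was tested as a contrast added after the values had been seen, in which both steps share the C1 arrays. It called 3 of the 10 member probes, against 22.3% of all valid probes. The second step was larger by 2.04 and 2.17 for the Runx1 probes (limma adjusted p = 0.00094 and 0.0022) and by 1.55 for Cebpa (0.0022), and without C1 replicate 4 by 2.49, 2.57 and 1.68. For Cebpb the second step was larger by 1.21 (95% interval 0.16 to 2.26, limma adjusted p = 0.071), which was not called, nor was it without C1 replicate 4, at 1.63 (limma adjusted p = 0.016). For Runx2 it was smaller, at -0.51 (95% interval -1.11 to 0.10), as it was for Cebpd, at -0.43 (-1.004 to 0.135), and neither was called. With spike-in scaling this limma contrast called 0 of the 10 (3 at an unadjusted p under 0.05), and the Runx1 probe A_55_P2183438 had an adjusted p of 0.030.

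The probes were printed on 4 slides, each of which held arrays of all 3 stages. The Runx1, Runx2, Cebpa, Cebpb, Cebpd and Cebpg probes were higher at C2 than at C1 within each of the 4 slides. For Runx1 this difference ranged from 1.33 to 2.97 on the first probe and from 1.18 to 3.25 on the second. It ranged from 0.73 to 1.36 for Runx2, from 1.17 to 1.82 for Cebpa and from 0.65 to 2.28 for Cebpb. The lowest value of Cebpb and the lowest of the first Runx1 probe were those of the slide that held C1 replicate 4. From NC1 to C1, Runx2 rose by 0.79 to 2.04 within slides and Cebpd by 0.49 to 1.38.

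C1 replicate 4 was the highest C1 array for 3 of the 10 valid member probes, and for 19.8% of all valid probes. The 3 were both Runx1 probes and Cebpb, which exceeded the mean of the other 4 C1 arrays by 1.14, 0.99 and 1.04. Among the ovulatory and luteal genes the excess was 6.06 for Tnfaip6, which was above background on all C1 arrays. The matrix protein Ptx3 read 0.81 on this array, and the estrogen sulfotransferase Sult1e1 5.18, and neither was above background on any other C1 array. The EGF-like factor Ereg read 1.19 and was above background on 2 of the other 4. In contrast the steroidogenic enzyme Cyp11a1 was 0.41 lower on this array than on the others and Runx2 only 0.18 higher. The ovulatory genes named for this array were chosen after their values were seen.

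**Figure D4:**
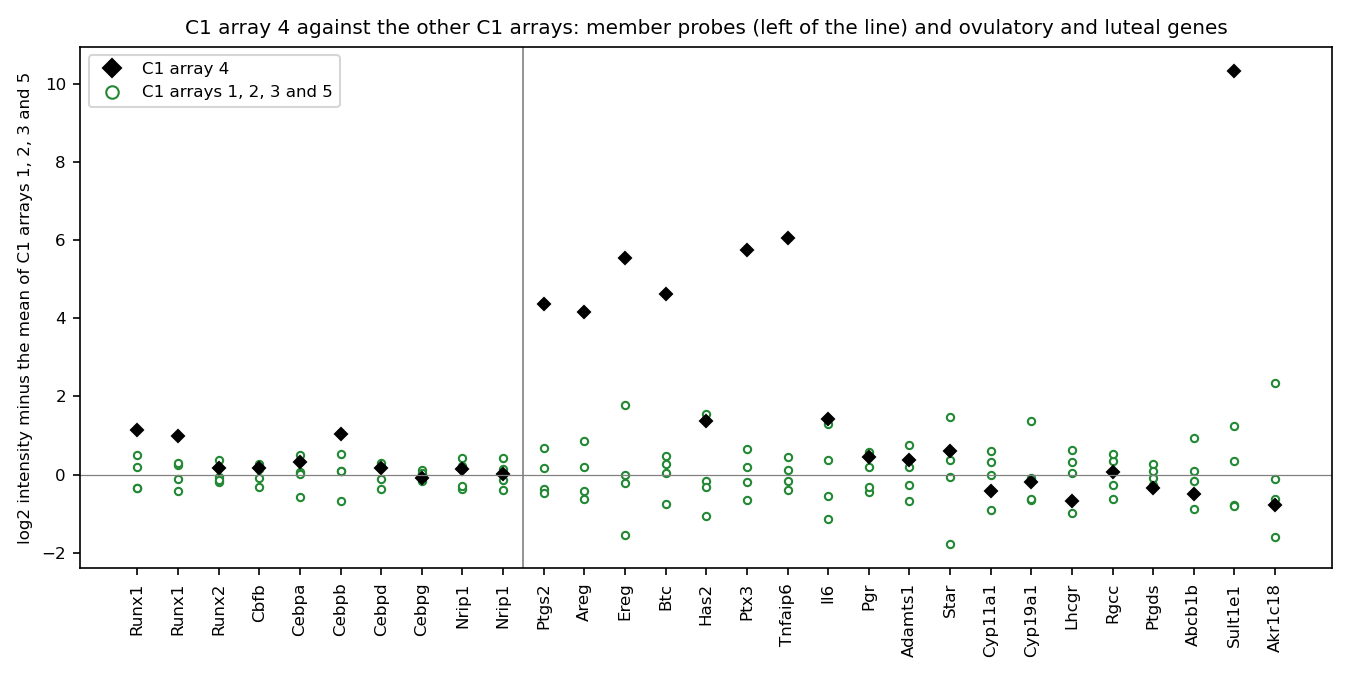
Log2 intensity of the 5 C1 arrays, each minus the mean of C1 arrays 1, 2, 3 and 5, for the member probes (left of the line) and 19 ovulatory and luteal genes. Black diamonds are C1 array 4, which exceeds the others by 1.14, 0.99 and 1.04 for the Runx1 probes and Cebpb, and by 6.06 for Tnfaip6. For genes near background on the other arrays, such as Ptx3 and Sult1e1, the plotted distance is set against background signal.

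Several members are also expressed in blood cells, and the arrays held bulk RNA, in which fewer cells of a type and less RNA per cell cannot be told apart. Of 10 leukocyte markers, 6 were above background in at least 4 of 5 arrays of both prophase I stages, and 8 at C2. The log2 of their summed level was 1.77 to 2.69 over the NC1 arrays, 2.27 to 2.52 over the C1 arrays and 2.71 to 3.21 over the C2 arrays. The pan-leukocyte gene Ptprc was well above background on 1 array at NC1, 1 at C1 and 4 at C2. Of the 6 leukocyte markers with a valid probe 1 was called from C1 to C2, against 47.6% of all valid probes. It was Cd52, which rose by 3.01, and the changes of the other 5 ran from -0.22 for Itgam to 0.78 for Tyrobp. From NC1 to C1 Cd52 was likewise the 1 marker called, with a rise of 1.20, against 2.52% of all valid probes called. At that step the median change of the 6 was 0.86, against -0.03 for all valid probes. By limma 4 of the 6 had an unadjusted p under 0.05. Over the span from NC1 to C2 4 of the 6 were called, all higher, against 51.5% of all valid probes called and 26.5% called higher. Their median over that span was 1.34. The part of leukocytes in the rise of Runx1, Cebpa and Cebpb was not tested.

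Other marker lists also differed between C1 and C2. Of the 8 granulosa and cumulus markers 6 fell, against 3853 of all 17323 valid probes called lower. The median change of the 8 was -3.30, and their summed level went from between 8.00 and 8.22 to between 5.54 and 5.88. All 5 theca and stroma genes fell from C1 to C2, against the same 3853 of 17323. The median change of the 5 was -4.79, and their summed level went from between 3.19 and 3.93 to between -1.08 and -0.49. The oocyte list had 9 of 9 genes above background at C1, and at C2 3 of 9 in at least 4 arrays and 8 of 9 in at least 3. Its summed level ran from 3.68 to 5.33 at C1 and from -0.64 to 4.09 at C2. The C2 arrays were unlike in this respect, since the oocyte factor Gdf9 read 3.06, 2.13, 2.17, -1.69 and -1.42 and the oocyte linker histone H1f8 2.52, 2.91, 3.04, -3.60 and -3.57. On the same arrays, replicates 4 and 5, Cebpa was at its lowest C2 values of 0.48 and 0.45 and the first Nrip1 probe at its highest of 1.79 and 1.94. The second Nrip1 probe (-0.78 and -0.52) and the second Runx2 probe (-1.39 and -1.43) were also highest there among the C2 arrays. The Runx1, Cbfb, Cebpb, Cebpd and Cebpg probes and the first Runx2 probe were not split in this way. These probes were picked after their values were seen, and a link to oocyte RNA was not tested.

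The oviduct list had 3 of 5 genes above background at each stage, and its summed level ran from -0.78 to 1.37 at C1 and from -0.03 to 3.13 at C2. Of its 3 valid genes 2 were called from C1 to C2, against 47.6% of all valid probes. Epcam and Tppp3 fell, by 1.05 and 1.01, whereas the oviductal glycoprotein gene Ovgp1 changed by 2.28 and was not called (limma adjusted p = 0.034). The red blood cell list had all 4 measured genes above background at each stage. From NC1 to C1, where Runx2 and Cebpd rose, 3 of the 4 fell, against 133 of all 17323 valid probes called lower. The median of the 4 was -2.98, and their summed level went from between 6.14 and 8.69 to between 3.34 and 5.40. The part of these changes in cell content was not tested for any member.

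The RUNX proteins recruit corepressors of the TLE and ETO families and coactivators such as Ep300. Of 16 listed cofactors 13 had a valid probe. From NC1 to C1 2 of the 13 rose, against 1.75% of all valid probes called higher. They were Tle2, by 1.38, and Tle3, by 1.31, both TLE corepressors (limma adjusted p = 0.00029 for each). From C1 to C2 4 rose and 1 fell, 5 of 13 against 47.6% of all valid probes, with a median of 0.34 against 0.02 for all valid probes. The largest rises were those of Tle3 (1.67), Tle2 (0.85), the ETO family member Cbfa2t2 (0.59) and the scaffold of histone deacetylase complexes Sin3a (0.38). Cbfa2t3, a relative of Cbfa2t2, fell by 1.30. Like Runx2, Tle2 and Tle3 rose at both steps.

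Among 10 relatives and regulators of the C/EBP factors, 9 had a valid probe. The pseudokinase Trib1, which targets Cebpa for degradation through the ubiquitin ligase Cop1, was higher at C1 than at NC1 by 1.26 (limma adjusted p = 0.0024). From C1 to C2 5 rose and 1 fell, 6 of 9 against 47.6% of all valid probes, with a median of 0.72 against 0.02. Trib1 rose by 2.36 and the inhibitory dimer partner Ddit3 by 1.21, while Trib2 fell by 2.40. The kinases Rps6ka1 and Mapk3 also rose, by 1.15 and 0.79, as did Atf4 by 0.72, a leucine zipper partner of the family. Cop1 changed by 0.19 and was not called. Mapk3, Atf4, Cop1 and Cebpe are named after their values were seen. Cebpe, a family member outside the 9 genes, was above background on 2 NC1, 4 C1 and 5 C2 arrays, with means of -4.48, -3.91 and -1.34.

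Of 16 nuclear receptors and corepressor proteins that work with Nrip1, 14 had a valid probe. For C1 against NC1 limma called 0 of them (3 at an unadjusted p under 0.05), with a median of -0.11. From C1 to C2 4 rose and 4 fell, 8 of 14 against 47.6% of all valid probes, with a median of 0.17 against 0.02. Ahr, the dioxin receptor, rose by 2.44 and the deacetylase Hdac5 by 1.13. The estrogen receptor Esr2 fell by 2.47 and the orphan receptor Nr5a2 by 1.75. The progesterone receptor Pgr, a factor induced early by the ovulatory signal, was above background on 1 C1 array, replicate 4, and on no C2 array. Its signal was not raised on that array, at -3.98 against -4.89 to -3.87 on the other C1 arrays.

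**Figure D5:**
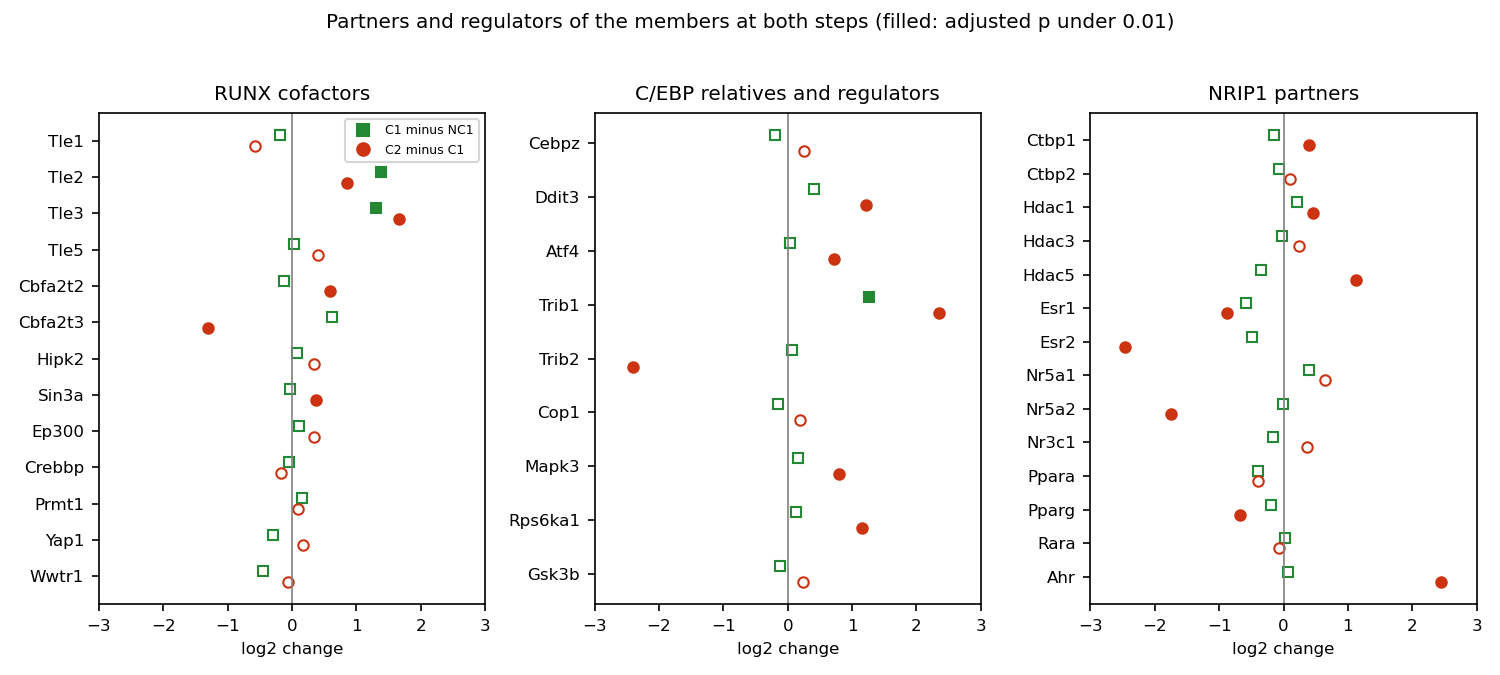
Log2 change of the valid RUNX cofactors, C/EBP relatives and regulators, and Nrip1 partners, from NC1 to C1 (green squares) and from C1 to C2 (red circles), filled where the limma adjusted p was under 0.01. Tle2, Tle3 and Trib1 are filled at both steps, and Trib2, Cbfa2t3, Esr2 and Nr5a2 lie farthest left at the second.

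Of 19 ovulatory and luteal genes, 8 had a valid probe, and the others fell below the presence rule in at least 1 stage. Star was above background on 2 NC1, 5 C1 and 5 C2 arrays, with means of -4.77, 0.92 and -0.13. Lhcgr was above background on 0, 5 and 3 arrays, with means of -6.26, -1.13 and -3.96. Both are named after their values were seen. From NC1 to C1 5 of the 8 genes with a valid probe rose, against 1.75% of all valid probes called higher. Among them were the steroid metabolism genes Akr1c18 (5.59) and Cyp11a1 (5.46), the transporter Abcb1b (4.41) and the protease Adamts1 (1.62). From C1 to C2 4 rose and 2 fell, 6 of 8 against 47.6% of all valid probes. Tnfaip6 rose by 6.43, and by 7.64 without C1 replicate 4. Akr1c18 rose by 5.16 and Abcb1b by 3.33, whereas the aromatase Cyp19a1 fell by 4.55.

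The genes whose values followed each member most closely over the 15 arrays were listed as a description. The correlations mostly carry the differences between stages, since all genes share the same arrays. For Runx1 probe A_55_P2183438 they were Ybx1, Eaf1, Nedd9, Ddx3x and Mis18a (r = 0.98 for each), and for its other probe Acbd3, Kmt5b, Cttnbp2nl, LOC100046855 and Mafg (0.96 to 0.97). For Runx2 they were Lynx1, Gm10775, Fdx1, Mpzl2 and Abcb1b (0.96 to 0.97). For Cebpd they were Mpzl2, Runx2, the metallothioneins Mt2 and Mt1, and Fdx1 (0.93 to 0.95). Runx2 and Cebpd thus shared Mpzl2 and Fdx1 among their 5 nearest genes, and Cebpd had Runx2 itself in second place at 0.95, which became 0.55 with stage means removed.

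For Cebpa the nearest genes were Sh2b2, Eif3g, Dazap1, Jade2 and Phf23 (0.96 to 0.97), and for Cebpb Hs3st1, Celf1, Rnf220, Slc35e4 and Rhbdf2 (0.97 for each). For Cebpg they were Zmiz1, Tirap, Rnf6, Exoc8 and Ctdsp1 (0.95 to 0.96). Cbfb was followed less closely, by Hbs1l, LOC100047042, Atf1, Dr1 and Mif (0.90 to 0.92), and the first Nrip1 probe by Tmem43, Irs1, Man1a2, Plxna1 and Atp10d (0.74 to 0.81). The second Nrip1 probe was followed by Reep3, Tjp1, Arhgap44, Slc25a24 and Scpep1 (0.87 to 0.91). With stage means removed, Cebpb and Cbfb correlated at 0.72 and Cebpb and Cebpa at 0.62, whereas Cebpb and the first Runx1 probe correlated at 0.37, and at -0.03 without C1 replicate 4.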

How the data were processed

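RNA of mouse cumulus cells was hybridized with 1 dye to 15 Agilent arrays, 5 for each of 3 stages. The authors deposited scanner output holding the background-subtracted intensity of each spot (Agilent Feature Extraction, release 10.5.1.1 in the submitters' processing notes and 10.7.1.1 in the file headers), with no scaling between arrays. The deposited table of log2 values of 20855 probes equals the scanner log2 plus 1 constant per array (SD of the difference at most 0.0074) and served as an alternative. Here spots of a probe were averaged, outlier spots and control spots were left out, log2 was taken and each array's median over 17323 valid probes was subtracted. Valid means well above background on at least 4 of 5 arrays of each stage. No spot was saturated, and 20 values were missing. For arrays only their number limits the precision, and p-values measure the spread between pools.

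Stages were compared with limma (version 3.58.1, R 4.3.3) in 1 model over the 15 arrays, two-sided, with the Benjamini-Hochberg adjustment over all valid probes at 0.01, the threshold of the study's methods. The fit was tested on simulated data. Exact permutation tests used scipy 1.17.1. Probes were named by accession through RefSeq (26055) or, failing that, by the authors' table (2770), and 10604 had no name. Alternatives were other scalings (median over all probes, 75th percentile, quantile, spike-in probes), the deposited table, normexp (offset 50, on the median signals, since these files hold no mean signal), presence in at least 1 stage, no filter, only the stages compared, slide or replicate number as a block, the methods' one-factor test, a change of at least 2-fold, trend and robust moderation, and each array left out. All arrays were scanned on 1 day, so the scan day could not be a block. Named genes are all members, up to 4 genes with the largest called changes of each pathway list and comparison, and the 5 genes most like each member. Members, lists and tests were chosen with earlier results of these data known. In the list of C/EBP relatives and regulators, 1 gene is not reported here and is left out of its counts.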

Additional observations from a re-analysis of the deposited data

Results flagged for a closer look

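Each member probe, with the 2 Runx3 probes, was examined for a single array far from the other 4 of its stage, in 39 groups of 5 arrays. Chance alone gives about 1 such group in 20. It was found once, for the Runx1 probe A_51_P206585 at NC1, where replicate 2 read -1.28 and the nearest other NC1 array -1.89. The gap was 0.746 of the range of the 5 arrays. The other Runx1 probe was also highest at NC1 on this array, at 0.48. Without it the Runx1 changes from NC1 to C1 were 0.37 and 0.13, and neither was called.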

How the results depend on the processing

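Of 1070 values of member probes under alternatives, 1052 kept their side of the threshold, 13 lost the call, 5 gained one and none of the called values changed sign. Among the 1052, 32 values that were not called changed sign. The median over all gene probes and the authors' deposited table shifted the median over the valid probes from -0.03 to -0.14 at the first step and from 0.02 to 0.33 at the second, and spike-in scaling shifted these to 0.11 and -0.14. Calls between C1 and C2 were 4400 higher and 3853 lower, against 5299 and 1795 when centred on all gene probes and 1596 and 2595 with spike-in scaling. Between NC1 and C1 the 437 calls became 271 when centred on all gene probes, 272 with the deposited table, 260 with spike-in scaling and 282 with a change of at least 2-fold, and the member calls became 1 in each of these and without the presence filter. Spike-in scaling gave 4191 calls between C1 and C2, 4887 between NC1 and C2, 4870 for any stage and 1061 for the difference of the steps, with 0 member calls for the last. A 2-fold minimum gave 3696, 4284 and 4627 for the first 3 of these. The difference of the steps had 1 member call without the presence filter. The cause was not tested.

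With each array left out in turn, the Runx1 minus Runx2 change from NC1 to C1 ranged from -1.54 to -1.14, and it was -0.72 with normexp. Its exact permutation p was adjusted to 0.063 without NC1 replicate 2, 4 or 5 and without C1 replicate 1, 2, 3 or 5. Fewer arrays raise the smallest p possible. The Cebpb minus Cebpa change at that step ranged from 0.33 to 0.65. Without NC1 replicate 3 its exact permutation p was adjusted to 0.048. Arrays with the same replicate number deviated together (r over 0.1) in 4 of 15 pairs, and the numbers were not taken as pairs. Between NC1 and C1, however, these correlations were all positive, at 0.075, 0.35, 0.056, 0.34 and 0.34 for replicates 1 to 5. The exact permutation tests took no account of such a pairing at that step. With the replicate block 404 probes were called between NC1 and C1, 8059 between C1 and C2 and 8767 between NC1 and C2, and 1 member call was gained, Cebpd from C1 to C2 (limma adjusted p = 0.0093). Signals near background limit what can be said of Runx3 and of the second Runx2 probe.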
